A study of Nematostella vectensis with 10 samples.

Results

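A group of 49 genes was higher in every replicate pair of Nematostella vectensis gastrulae after knockdown of NvpaxA, out of 24520 gene models measured. A gene entered the group when its mean level in the NvpaxA_shRNA libraries was at least 2 CPM (the gene's estimated reads scaled to 1000000 reads per library) and its CPM was at least 1.5 times that of the same-numbered Scramble_control library in all 5 pairs. The genes were thus chosen by the measured CPM of these same libraries. The study's own list of cnidocyte genes was kept out, and 4 genes of that list that met the same thresholds are given separately. The thresholds were met by 0.317% of the 15479 unlisted genes at or above 2 CPM. Because these libraries also chose the 49 genes, the differences between the groups are a description, and no test of them is offered as support.

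Nematostella is a sea anemone, and its gastrula already makes cnidocytes, the stinging cells that define cnidarians. Each cnidocyte builds a capsule with a coiled thread, and minicollagens such as ncol4 are structural proteins of the capsule wall. Pax genes encode transcription factors with a paired DNA-binding domain, and NvpaxA is expressed in developing cnidocytes. In a knockdown with a short hairpin RNA (shRNA), the hairpin is processed into a small RNA that directs the loss of the matching mRNA, and a scrambled hairpin serves as the control.

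All libraries came from wildtype embryos, with 1 NvpaxA shRNA or a scrambled shRNA as the only labelled difference, collected at 28 hours post fertilization at 24 °C with about 1000 embryos pooled per replicate. The 5 NvpaxA_shRNA and 5 Scramble_control libraries fell into 2 labelled batches, LA61 (replicates 1 and 2 of both groups) and LA70 (replicates 3, 4 and 5 of both groups). A single NvpaxA hairpin was used, so effects of losing NvpaxA and effects of that hairpin on other transcripts cannot be told apart. The RNA came from whole embryos, and a higher value can mean more cells of a type or more RNA per cell, which cannot be told apart.

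Library totals were between 20037579 and 26883859 estimated reads, so that 1 CPM was 20 to 27 reads. NvpaxA (NV2t006786) was at 15.9, 16.2, 21.3, 10.8 and 22.9 CPM in the NvpaxA_shRNA libraries, against 102, 121, 93.5, 75.5 and 122 CPM in the Scramble_control libraries. Every NvpaxA_shRNA library lay below every control library, and the log2 difference was -2.54 ± 0.19 (SE, edgeR quasi-likelihood test, Benjamini-Hochberg adjusted p = 6.95e-06). The listed cnidocyte genes serve as the marker set, and NvpaxA itself is on the list. Of the 38, 35 passed the count filter, and edgeR called 4 lower (NvpaxA, ncol4, ggt and NEP3-like, so 3 besides the target) and 3 higher, where it called 0.842% of all genes lower and 0.387% higher. With the replicate pairs as a block the 4 lower calls were the same, and the higher calls were 5, with NVE15732 and TX60B-like3 added. Leaving out NvpaxA and the genes that met the thresholds for a rise, the listed genes summed to 1765 to 2399 CPM in NvpaxA_shRNA libraries and to 2038 to 2781 CPM in controls, and the sum was lower in all 5 pairs. The median of the same genes was higher in all 5 pairs, at 19.6 to 34.5 CPM in NvpaxA_shRNA libraries and 18.6 to 26.5 CPM in controls. The part of a change in cnidocyte number in the values below was not tested. NvpaxA_shRNA replicate 4 stood apart within its group, being the lowest of the 5 NvpaxA_shRNA libraries for 36 of the 49 genes. It was the lowest for 28.4% of unlisted genes at or above 2 CPM. Scramble_control replicate 4 was the lowest control for 17 of the 49, and for 31.4% of the same unlisted genes. In both groups replicate 4 also had the lowest sum and the lowest median of the listed genes.

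The 49 genes together made up 1003 ± 155 CPM in NvpaxA_shRNA libraries and 434 ± 67.5 CPM in controls (SD, n = 5 each). NvpaxA_shRNA replicates 1 to 5 summed to 1086, 1138, 1052, 741 and 996 CPM, against 435, 506, 402, 338 and 487 CPM in the same-numbered controls. Replicate 4 was the lowest sum in both groups. Without NV2t011802, which carried the most reads, the sums were 513 to 785 CPM in NvpaxA_shRNA libraries and 222 to 325 CPM in controls.

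Fold differences of the group means ran between 1.66 and 37.4, with a median of 2.65. The fold was 2 or more in 39 genes, 4 or more in 16 and 8 or more in 4. In 24 genes every pair reached a ratio of 2, and in 4 genes every pair reached a ratio of 4. The 5 NvpaxA_shRNA values lay above all 5 control values in 42 of the 49 genes, where this was so for 0.644% of the 19110 genes that passed the count filter. The groups overlapped in 7, which were, named after their values were seen, NV2t011823, NV2t001257, NV2t016659, NV2t002763, NV2t016903, NV2t020083 and NV2t021765. The edgeR fit over all genes called 40 of the 49 higher (fold of 1.5 or more, adjusted p of 0.05 or less), beside the background of 0.387% (74 of 19110 genes). Of the 34 other genes it called higher, 27 were unlisted genes at or above 2 CPM with at least 1 pair under the 1.5 ratio, 4 were under 2 CPM and 3 were listed. With the replicate pairs as a block, 48 of the 49 were called, beside 0.738% of all genes (141 of 19110). The rule used this contrast, so nothing is read from these counts.

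**Figure D1:**
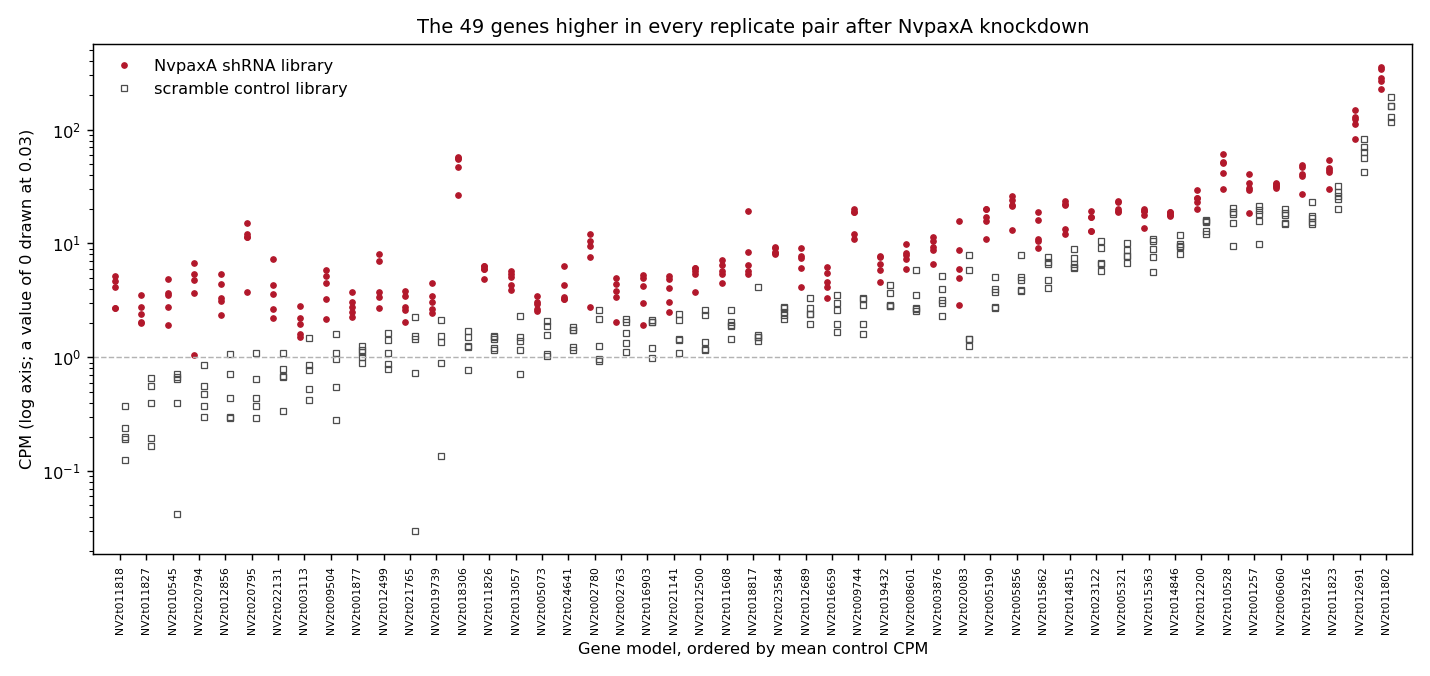
CPM on a log axis of each of the 49 genes in the 5 NvpaxA_shRNA libraries (filled circles) and the 5 Scramble_control libraries (open squares), with genes ordered by mean control CPM and a dashed line at 1 CPM. In 42 genes the circles lie above every square, and most genes sit below 10 CPM in controls.

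Most of the 49 genes were scarce in control gastrulae. Their median mean control level was 2.02 CPM, compared with 21.1 CPM over all unlisted genes at or above 2 CPM in NvpaxA_shRNA libraries. The 127 unlisted genes that met the mirrored thresholds, lower in every pair, had a median of 4.05 CPM in NvpaxA_shRNA libraries and 15.0 CPM in controls. Split by control level, 4 of the 49 were under 1 CPM in every control library and are called silent here, 37 were low (a mean control level under 10 CPM) and 8 were expressed (10 CPM or more). A gene under 1 CPM in controls had to reach 2 CPM after knockdown to be counted at all, so a large fold was built into the silent class. Folds of means were 6.43 to 17.3 (median 7.6) in the silent class, 1.86 to 37.4 (median 2.65) in the low class and 1.66 to 2.87 (median 1.9) in the expressed class.

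The silent genes were NV2t011818, NV2t020794, NV2t010545 and NV2t011827. None was fully at 0 in controls. NV2t011818 was at 5.21, 4.71, 2.72, 2.69 and 4.17 CPM in NvpaxA_shRNA replicates 1 to 5, against 0.125, 0.2, 0.372, 0.24 and 0.192 CPM in controls. These control values stand for 3, 4, 10, 6 and 4 reads, and the lowest NvpaxA_shRNA library had 63 reads. Of the 4 genes it had the lowest control mean and the largest fold of means, 17.3.

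NV2t020794 was at 5.4, 3.69, 6.73, 1.04 and 4.78 CPM in NvpaxA_shRNA libraries, against 0.376, 0.299, 0.558, 0.48 and 0.864 CPM in controls. Its NvpaxA_shRNA replicate 4 stood close to the control range, with 24 reads against a control maximum of 18 reads. NV2t010545 was at 4.88, 3.69, 2.76, 1.92 and 3.53 CPM in NvpaxA_shRNA libraries, against 0.0418, 0.649, 0.707, 0.4 and 0.672 CPM in controls. Control replicate 1 of this gene held 1 read, while the other controls held 10 to 19. NV2t011827 was at 2.75, 2, 2.04, 2.39 and 3.52 CPM in NvpaxA_shRNA libraries, against 0.167, 0.399, 0.558, 0.194 and 0.658 CPM in controls. Its model is 310 bases long, the shortest of the 49, and its control reads numbered 4 to 15. The classes rest on CPM, which is not corrected for length. On the scale of TPM (transcript abundance corrected for length), NV2t011827 was at 60.2 ± 15.4 in NvpaxA_shRNA libraries and 9.11 ± 5.33 in controls. This control level lay above that of NV2t006060, a gene of the expressed class, at 4.68 ± 1.03 TPM. Silent thus means few reads here, and not a low level per length. The groups did not overlap in any of the 4.

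The class edge is soft, since 17 of the 49 genes were under 1 CPM in at least 1 control library. NV2t020795 and NV2t012856 missed the silent class only through control replicate 5. NV2t020795 was at 11.4, 11.4, 15.1, 3.76 and 12.1 CPM in NvpaxA_shRNA libraries, against 0.292, 0.649, 0.372, 0.44 and 1.1 CPM in controls, and its fold of means was 18.8. NvpaxA_shRNA replicate 4 was again the lowest, and it still lay above every control. NV2t012856 averaged 3.71 ± 1.17 CPM in NvpaxA_shRNA libraries and 0.559 ± 0.325 CPM in controls (SD, n = 5 each), with a control maximum of 1.06 CPM.

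The largest fold of all belonged to a low gene, NV2t018306. It held 1308, 1236, 1352, 624 and 1237 reads in NvpaxA_shRNA libraries, against 36, 25, 46, 31 and 16 reads in controls. The mean was 48.4 ± 12.8 CPM in NvpaxA_shRNA libraries and 1.29 ± 0.353 CPM in controls (SD, n = 5 each), a 37.4-fold difference. Replicate 4 was the lowest NvpaxA_shRNA library, and it still lay far above every control. On the TPM scale, NV2t018306 was among the 3 most abundant of the 49 after knockdown. It was at 67.0 ± 19.6 TPM in NvpaxA_shRNA libraries and 1.76 ± 0.527 TPM in controls (SD, n = 5 each).

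Other low genes with a large pair ratio were NV2t009744, NV2t022131 and NV2t002780. NV2t009744 averaged 16.2 ± 4.29 CPM in NvpaxA_shRNA libraries and 2.61 ± 0.785 CPM in controls (SD, n = 5 each), a 6.2-fold difference. NV2t022131 averaged 4.0 ± 1.99 CPM in NvpaxA_shRNA libraries and 0.715 ± 0.274 CPM in controls, a 5.58-fold difference. Its NvpaxA_shRNA replicate 1, at 7.26 CPM, was the highest of its libraries. NV2t002780 averaged 8.48 ± 3.62 CPM in NvpaxA_shRNA libraries and 1.58 ± 0.764 CPM in controls, and its NvpaxA_shRNA replicate 4, at 2.74 CPM, came closest to the control maximum of 2.59 CPM.

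Genes already expressed in controls had smaller folds of means. The classes were cut on the control level that the fold divides by, so this order is a description only. NV2t011802, the most abundant of the 49 per length, was at 342, 353, 284, 228 and 267 CPM in NvpaxA_shRNA libraries, against 162, 192, 129, 116 and 162 CPM in controls. Its level was 233 ± 45.3 TPM in NvpaxA_shRNA libraries and 115 ± 22.1 TPM in controls (SD, n = 5 each), and every NvpaxA_shRNA value lay above every control value. NV2t012691 followed in the order of TPM, at 128, 149, 125, 83.4 and 113 CPM in NvpaxA_shRNA libraries, against 63.8, 82.1, 56.4, 42.6 and 70.8 CPM in controls. The lowest NvpaxA_shRNA library of NV2t012691, replicate 4, lay just above its highest control, replicate 2. These genes had folds of means of 1.94 and 1.9.

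NV2t019216 was at 40.3, 47.1, 38.9, 27.2 and 48.4 CPM in NvpaxA_shRNA libraries, against 16.8, 17.5, 15.4, 14.7 and 23.3 CPM in controls, a 2.3-fold difference without overlap. NV2t011823 was at 44.1, 53.5, 46.3, 29.9 and 42.6 CPM in NvpaxA_shRNA libraries, against 26.1, 32.0, 24.7, 19.9 and 28.1 CPM in controls. Here NvpaxA_shRNA replicate 4 was below the highest control, and its own control, replicate 4, was the lowest control. NV2t018817, at 5.42, 6.43, 5.69, 8.34 and 19.1 CPM in NvpaxA_shRNA libraries against 1.5, 1.4, 1.56, 1.52 and 4.13 CPM in controls, was high in replicate 5 of both groups. Its fold of means was 4.45, and its level per length was 25.5 ± 16.4 TPM in NvpaxA_shRNA libraries and 5.68 ± 3.74 TPM in controls.

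The genes nearest the thresholds show how finely the edge of the group is drawn. NV2t011823 and NV2t020083 were just inside, with weakest pair ratios of 1.5042 and 1.51, and NV2t001285 and NV2t013225 were just outside, at 1.4985 and 1.4907. At the level threshold NV2t003113 (2.02 CPM in NvpaxA_shRNA libraries) and NV2t011827 (2.54 CPM) were inside, while NV2t022626 (1.96 CPM) and NV2t011784 (1.9 CPM) were outside. NV2t022626 was itself under 1 CPM in every control. In all, 30 further unlisted genes met the ratio in every pair and stayed under 2 CPM. A further 3 genes were at 0 in both libraries of at least 1 pair and were not counted.

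The 4 listed cnidocyte genes that met the thresholds were NVE17236 (NV2t010392), Ncol (NV2t011820), NVE5730 (NV2t021271) and NVE15732 (NV2t024307). NVE17236 averaged 28.0 ± 11.2 CPM in NvpaxA_shRNA libraries and 2.42 ± 1.22 CPM in controls (SD, n = 5 each), an 11.6-fold difference. Ncol averaged 29.3 ± 4.97 CPM in NvpaxA_shRNA libraries and 6.36 ± 1.1 CPM in controls, with pair ratios of 4.37 to 4.89. NVE5730 and NVE15732 differed by 2.15-fold and 1.83-fold.

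The batches were compared through the log2 ratio of each pair, with 0.5 added to both read counts. The median over the 49 genes was 1.54, 1.46, 1.53, 1.32 and 1.23 in pairs 1 to 5, beside medians of all tested genes between -0.097 and 0.089. Pair 5 was the weakest of the 5 pairs for 19 genes and pair 4 for 13, whereas pair 1 was the weakest for 3. The strongest pair was pair 1 or pair 3 for 14 genes each.

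Averaged within a batch, the median log2 ratio was 1.56 in LA61 (2.96-fold) and 1.33 in LA70 (2.52-fold). It was larger in LA61 for 37 of the 49 genes and larger in LA70 for 12, while LA61 was the larger for 49.8% of all tested genes. The count depended on pair 1. Without pair 1, LA61 was the larger for 27 of the 49 genes and for 40.5% of all tested genes, and without any other single pair it was the larger for 31 to 39 of the 49 and for 47.1 to 60.0% of all tested genes. The highest of these backgrounds, 60.0%, stood beside 36 of the 49, without pair 2. By control level, the medians were 4.01 in LA61 and 2.46 in LA70 for the silent genes and 1.57 and 1.34 for the low genes. The median was 0.93 in both batches for the expressed genes. LA61 was the larger for all 4 silent genes, 26 of 37 low genes and 6 of 8 expressed genes. Without pair 1 the LA61 median of the silent genes was 2.99, and 3 of the 4 remained larger in LA61.

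**Figure D2:**
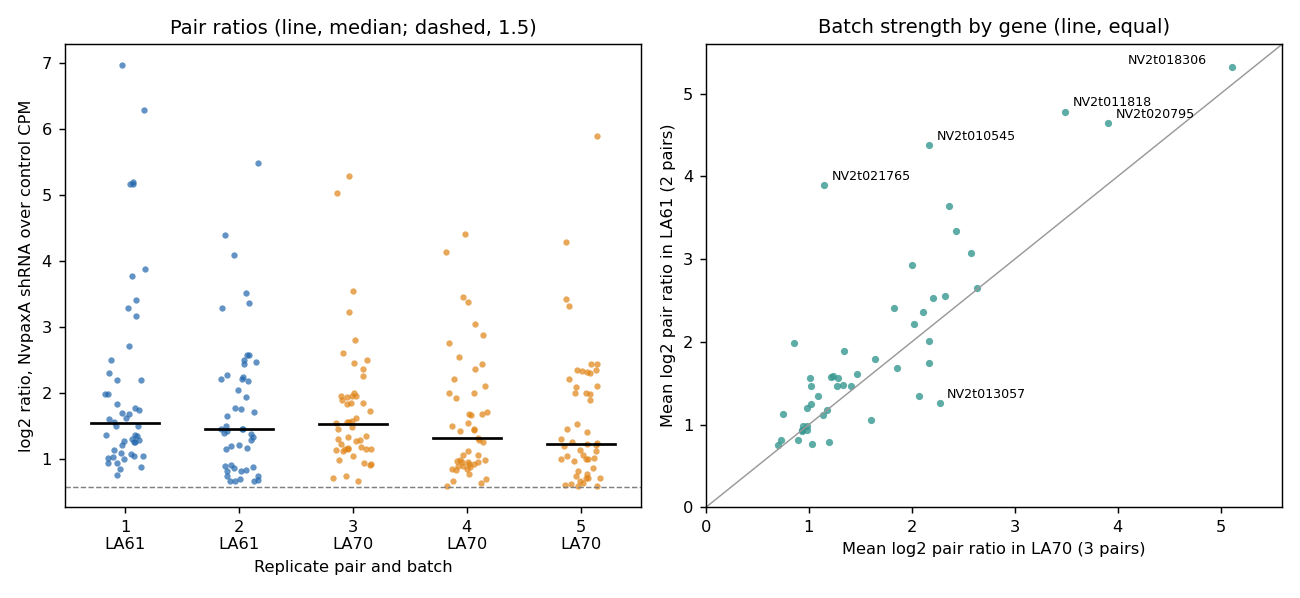
Left, log2 ratio of NvpaxA_shRNA over control CPM of each of the 49 genes in each replicate pair (0.5 added to both counts), with LA61 pairs in blue, LA70 pairs in orange, the median as a line and the 1.5 ratio dashed. Right, the mean log2 ratio of each gene in LA61 against LA70, where 37 of the 49 genes lie above the line of equal values.

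The 3 genes with the largest excess in LA61 were NV2t021765, NV2t010545 and NV2t011818. NV2t021765 was at 2.58 and 2.75 CPM in the LA61 NvpaxA_shRNA libraries, against 0 and 1.55 CPM in their controls, so that its excess of 2.74 on the log2 scale came from 1 control library with no read. In pair 2 its ratio was 1.78, and in the LA70 pairs the NvpaxA_shRNA libraries were at 3.83, 2.03 and 3.45 CPM against 2.26, 0.726 and 1.46 CPM in controls. NV2t010545 had an excess of 2.21, with a ratio of 117 in pair 1, where the control held 1 read, and 5.69 in pair 2. NV2t011818 had ratios of 41.6 and 23.6 in the LA61 pairs, and its excess was 1.29.

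The 3 genes with the largest excess in LA70 were NV2t013057, NV2t019739 and NV2t024641. NV2t013057 was at 3.92, 5.12, 5.39, 4.32 and 5.77 CPM in NvpaxA_shRNA libraries, against 1.5, 2.3, 1.38, 0.72 and 1.15 CPM in controls, and its log2 ratio was 1.26 in LA61 and 2.27 in LA70. Its NvpaxA_shRNA levels were alike in both batches, and its LA70 controls lay below its LA61 controls. NV2t019739 had a log2 ratio of 1.34 in LA61 and 2.07 in LA70, and its control replicate 4 was at 0.136 CPM where the other controls were at 0.892 to 2.13 CPM. NV2t024641 had a log2 ratio of 1.05 in LA61 and 1.6 in LA70.

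An interaction of group and batch was fitted over all genes with edgeR to test whether the response differed between batches. None of the 49 genes passed an adjusted p of 0.05, and the background was 0% of the 19110 genes. At an unadjusted p of 0.05, 424 genes passed, and 1 of the 49 was among them, NV2t011818, whose log2 ratio in LA61 minus LA70 was 1.4 ± 0.6 (SE; edgeR, unadjusted p = 0.0405, adjusted p = 0.999). DESeq2 called none either, with 389 genes and 0 of the 49 at an unadjusted p of 0.05. The rule demanded a rise in both batches, which limits the differences that could be seen. With the replicate pairs as a block, 1 gene passed that was not one of the 49, and 3 of the 49 were among 2458 genes at an unadjusted p of 0.05.

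The level of the genes without knockdown was compared between batches in the 5 control libraries. The rule did not use this contrast, but it used the same control values as the lower side of each pair. That limits the differences that could be seen, and so does the small number of libraries. Of the 49, 48 passed the count filter in that fit, and edgeR called none with a fold of 1.5 or more and an adjusted p of 0.05 or less, against a background of 0.0102% (2 of 19586 genes). At an unadjusted p of 0.05 there were 1319 genes and 2 of the 49, and DESeq2 called 77 genes and 0 of the 49. The 2 were NV2t020083, with a log2 difference in LA70 minus LA61 of 1.94 (edgeR, unadjusted p = 0.0161), and NV2t023122, with -0.58 (edgeR, unadjusted p = 0.0156). NV2t020083 was at 15.7, 2.87 and 8.84 CPM in the LA70 NvpaxA_shRNA libraries against 7.92, 1.44 and 5.86 CPM in their controls, and at 4.96 and 5.91 CPM in LA61, where its controls were at 1.46 CPM or less. Its values spread more widely between pairs than the group means lay apart. Without control replicate 4 it was called, beside 805 genes in all.

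Gene models carry serial numbers, and neighbouring numbers among the 49 genes were counted. Whether the numbers follow the order along the chromosomes is not stated by the labels or the methods, so a run is a run of numbers only. Consecutive numbers formed 3 runs, each a pair of genes, and so 6 of the 49 genes (12.2%) had another of the 49 beside them. Of the 15430 other unlisted genes at or above 2 CPM, 55 (0.356%) had one of the 49 beside them. With a gap of 1 number allowed, 8 of the 49 were in runs, the added pair being NV2t012689 and NV2t012691.

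NV2t020794 and NV2t020795, described above as nearly silent in controls, had folds of means of 8.4 and 18.8, and in both NvpaxA_shRNA replicate 3 was the highest and replicate 4 the lowest. NV2t011826 was at 6.01, 6.37, 5.95, 4.88 and 6.31 CPM in NvpaxA_shRNA libraries, against 1.5, 1.16, 1.53, 1.21 and 1.45 CPM in controls. Its values lay closer together within each group than those of NV2t011827 beside it.

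NV2t012499 was at 3.71, 2.72, 8.11, 3.38 and 7.02 CPM in NvpaxA_shRNA libraries, against 0.793, 1.1, 1.41, 0.88 and 1.64 CPM in controls. NV2t012500 was at 5.42, 6.14, 5.77, 3.72 and 6.11 CPM in NvpaxA_shRNA libraries, against 1.17, 2.35, 1.19, 1.36 and 2.59 CPM in controls. In NV2t012499 the NvpaxA_shRNA replicates 3 and 5 stood above the others, which was not so in NV2t012500. Whether neighbouring models share sequence or are pieces of 1 gene was not tested.

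**Figure D3:**
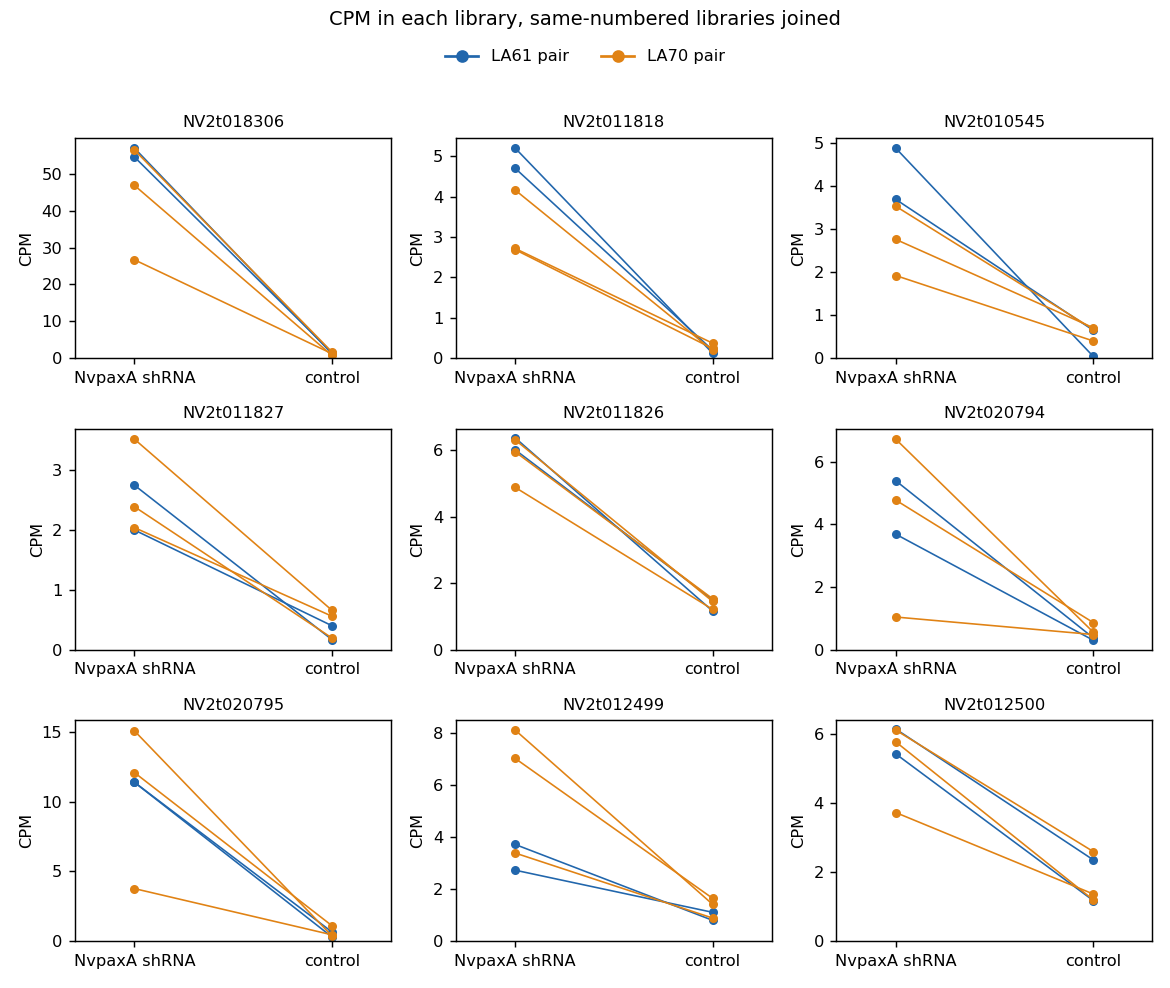
CPM in each NvpaxA_shRNA library and its same-numbered control, joined by a line (LA61 pairs blue, LA70 pairs orange), for NV2t018306, the 4 silent genes and the genes of the 3 runs of consecutive numbers. Every line falls toward the control, and NV2t020794 in pair 4 has the flattest line of its panel.

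The numbers 11802 to 11831 held 5 of the 49 genes, the most in any stretch of 30 numbers, and only stretches that overlap it held as many. In it lay NV2t011802, NV2t011818, NV2t011823, NV2t011826 and NV2t011827, and no stretch that shared none of these genes held more than 2 of the 49. Ncol, the listed gene that met the same thresholds, lay in it as number 11820. The stretch also held 2 genes that met the mirrored thresholds, NV2t011819 and NV2t011824. Of the other numbers, NV2t011821 averaged 88.0 ± 14.7 CPM in NvpaxA_shRNA libraries and 56.7 ± 11.2 CPM in controls (SD, n = 5 each), and it missed the rule through pair 5, with a ratio of 1.4, its other ratios being 1.52 to 1.69. edgeR did not call it (adjusted p = 0.0709), and the fit with the replicate pairs as a block did (adjusted p = 0.000145). NV2t011825, at 119 ± 20.2 CPM in NvpaxA_shRNA libraries and 92.6 ± 20.9 CPM in controls, had pair ratios of 1.2 to 1.52. NV2t011815, at 708 ± 150 CPM in NvpaxA_shRNA libraries and 781 ± 137 CPM in controls, had the most reads in the stretch. These genes were named after their values were seen.

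**Figure D4:**
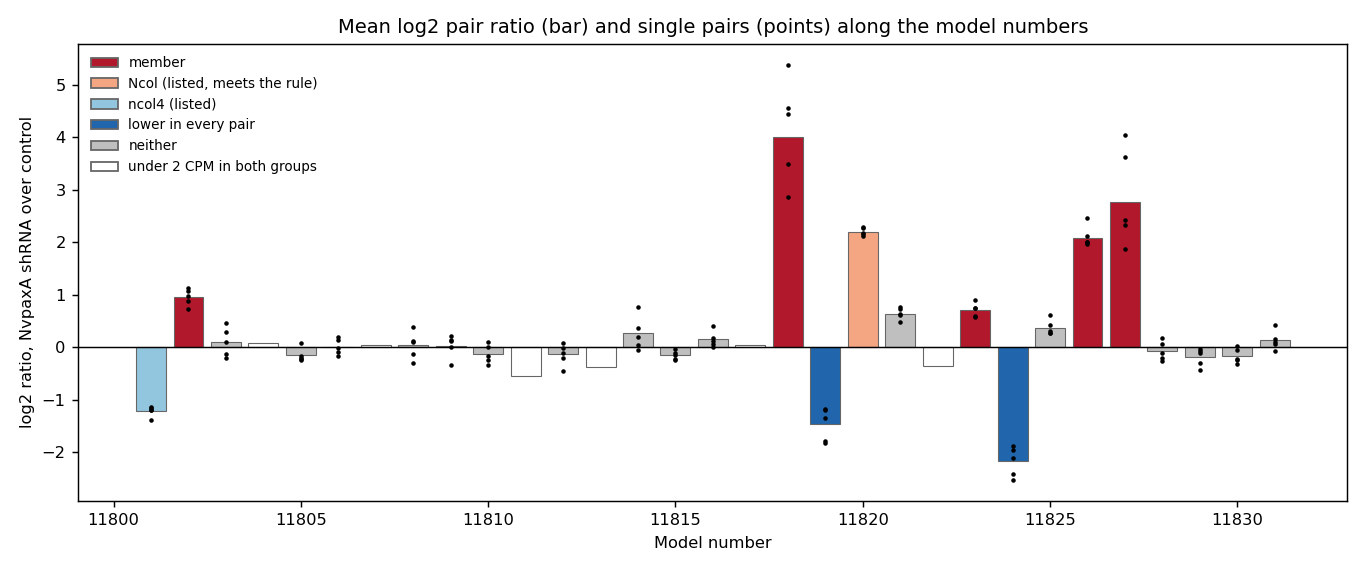
Mean log2 ratio of NvpaxA_shRNA over control (bars) and the ratio in single pairs (points) for the model numbers 11801 to 11831, with 0.5 added to both counts for the bars. Genes of the group and Ncol stand above 0. ncol4 and both unlisted genes that met the mirrored thresholds stand below 0, each directly beside a gene of the group. Smaller bars of other genes stand on both sides of 0.

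An unlisted gene that met the mirrored thresholds was the direct neighbour of 3 of the 49 (6.12%), and 2 of the 3 lay in the stretch just described. Such a neighbour stood beside 0.959% of the other unlisted genes at or above 2 CPM. NV2t011819, beside the silent gene NV2t011818, averaged 5.95 ± 1.76 CPM in NvpaxA_shRNA libraries and 16.0 ± 2.88 CPM in controls (SD, n = 5 each). NV2t011824, beside NV2t011823, averaged 13.8 ± 3.39 CPM in NvpaxA_shRNA libraries and 63.2 ± 21.2 CPM in controls. The other such pair was NV2t005190 and NV2t005189.

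NV2t005190 was at 15.8, 17.2, 20.2, 10.9 and 19.9 CPM in NvpaxA_shRNA libraries, against 2.75, 3.71, 5.05, 2.71 and 3.94 CPM in controls. NV2t005189 was at 1.35, 1.07, 1.28, 1.1 and 1.71 CPM in NvpaxA_shRNA libraries, against 10.2, 15.6, 13, 10.4 and 14.5 CPM in controls. The groups did not overlap in either gene, and the direction was opposite in every pair. The part of reads shared between neighbouring models in these opposite differences was not tested.

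Number 11801 is ncol4, the minicollagen gene, and it lay directly below NV2t011802. Its pair ratios were 0.381 to 0.459, so ncol4 was also lower in every pair. As a listed gene, ncol4 was left out of the count of such neighbours above. ncol4 was at 86.6, 91.3, 76.9, 59.1 and 75.8 CPM in NvpaxA_shRNA libraries, against 198, 209, 168, 155 and 169.8 CPM in controls. A listed cnidocyte gene was within 10 numbers of 7 of the 49 genes (14.3%), and of 2.51% of the other unlisted genes at or above 2 CPM. The stretch with ncol4 below it and Ncol in it supplied 5 of the 7, and outside it the share was 2 of 44 (4.55%), beside 2.4% of the other genes. These shares are descriptions, since the 49 genes were chosen with their values known. Among the 69 direct neighbours that were not of the group and passed the count filter, the median log2 ratio was 0.051, beside -0.004 over all tested genes, and 40 of the 69 were above 0.

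When pair 5 was left out of the rule, 81 genes met it and 14 stood in runs. The 4 further runs were NV2t014004 with NV2t014005, NV2t016658 with NV2t016659, NV2t017697 with NV2t017698, and NV2t024965 with NV2t024966, named after their values were seen. Only NV2t016659 of these is one of the 49, and the ratios of the others in pair 5 were 1.0 to 1.48.

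The median length of their longest model was 2244 bases, compared with 2652 bases over unlisted genes at or above 2 CPM, and 75.5% had a single transcript model, compared with 71.3%. In 12 genes with several models, the model with the most reads was the same in both groups except in NV2t023122. Leading-model shares of NV2t011802 were 91.7 to 95.6% in NvpaxA_shRNA libraries and 84.6 to 91.5% in controls, so the ranges did not overlap. NV2t006060, named after its values were seen, gave its leading model 86.8 ± 3.1% of its reads in NvpaxA_shRNA libraries and 74.7 ± 3.33% in controls (SD, n = 5 each), and the ranges, 81.6 to 89.1% and 72.1 to 80.3%, did not overlap. The median coefficient of variation of the 49 was 24.5% over NvpaxA_shRNA libraries and 29.9% over controls, compared with 16.5% and 15.8% for the background. The 49 and the background were not matched by level, with median mean control levels of 2.02 and 21.1 CPM. The part of the level in this spread was not tested.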

How the data were processed

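RNA was sequenced from pooled Nematostella gastrulae, 5 NvpaxA_shRNA and 5 Scramble_control libraries. The authors quantified reads with Salmon in Galaxy against transcript models of the Nvec200 genome, and deposited 1 table per library with the estimated count (NumReads) and TPM of 35819 transcript models. Software versions: not given in the sources used here. TPM values as deposited are scaled to the effective length of each model.

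Estimated counts were summed over models whose names share their first 10 characters, giving 24520 genes, of which 519 were at 0 in every library. Summed counts were divided by the library total for CPM. For tests they were rounded and fitted with edgeR 4.0.16 (TMM scaling, filterByExpr, quasi-likelihood F test, group as the only term, Benjamini-Hochberg adjustment) in R 4.3.3. A call needed an adjusted p of 0.05 and a fold of 1.5, and the interaction only the adjusted p. DESeq2 1.42.0 was an alternative. The pair rule also required a read in every NvpaxA_shRNA library. The fits were run on simulated counts without replicate pairing, and the rule on a small made table. These runs checked the code and are no support for the results.

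The 49 genes and the lists were chosen with earlier results of these data known. Genes were named by rule: NvpaxA, the 10 largest mean log2 pair ratios, the 8 highest TPM, silent genes, runs, the 3 strongest in either batch, genes at the thresholds and listed genes that met them. Gene names come from the study's cnidocyte list, and 0 rows of the reference table name these models, so no sequences are shown.

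The study describes paired replicates. Deviations from the group means of same-numbered libraries correlated at 0.12, 0.16, 0.39, 0.39 and 0.43 in replicates 1 to 5. Of 10 libraries, 8 correlated best with their own number, and the numbers were taken to pair the samples. Same-numbered libraries also share a batch, and the part of the batch in these correlations was not tested. Libraries within a group differed beyond sampling noise in every pairing (smallest chi-square per degree of freedom 13.6). The labels tie no replicate to a separate spawning, so p-values measure the spread between these samples, which may be technical. Alternatives were other scaling, thresholds, filters, single models, the pair block, batches alone and each replicate left out.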

Additional observations from a re-analysis of the deposited data

Results flagged for a closer look

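Single libraries far from the rest of their group were looked for in the 24 named genes of the group, over 48 groups of 5 libraries. In 3 a library stood apart, and chance gives about 1 in 20. NV2t011826 was at 4.88 CPM in NvpaxA_shRNA replicate 4 and at 5.95 to 6.37 CPM in the other NvpaxA_shRNA libraries. NV2t018817 was at 19.1 CPM in NvpaxA_shRNA replicate 5, with the others at 5.42 to 8.34 CPM, and at 4.13 CPM in Scramble_control replicate 5, with the other controls at 1.4 to 1.56 CPM. Replicate 5 thus stood apart in both groups for this gene.

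Reads of 3 genes that were not counted lay in 1 or 2 NvpaxA_shRNA libraries. NV2t002342 was at 619 CPM and NV2t013029 at 1047 CPM in NvpaxA_shRNA replicate 1, and both were listed at 0 in the other 9 libraries. NV2t013375 was at 9.92 CPM in NvpaxA_shRNA replicate 4, at 0.602 CPM in NvpaxA_shRNA replicate 2 and at 0 elsewhere.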

How the results depend on the processing

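The number of genes in the group moved with its thresholds, to 30 at 5 CPM, 124 at a pair ratio of 5 to 4, 24 at a pair ratio of 2 and 76 when single transcript models were counted. It was 58 to 81 with 1 replicate pair left out, 81 without replicate 5, when 14 genes stood in runs (6 to 14 over all pairs left out). TMM scaling gave 53 genes and kept 47 of the 49, and counting pairs at 0 in both libraries, an alternative added after seeing the data, gave 52. The silent class held 1 gene at a limit of 0.5 CPM and 14 at 2 CPM. The LA61 median log2 ratio was 1.46 without replicate 1 and 1.54 without replicate 2.

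Genes called higher numbered 114 with DESeq2, 267 in LA61 alone and 12 in LA70 alone, and of the 49 the calls were 47, 28 and 10. With the replicate pairs as a block they numbered 141, 48 of them among the 49, and the interaction gave 1 gene. Without 1 replicate the interaction gave 0 to 1 gene. The control comparison of batches gave 0 genes with RLE scaling, 77 with DESeq2 and 0 to 805 with 1 control left out, 805 without control replicate 4, when 1 of the 49 was called (0 to 1 over all controls left out). No direction reversed. All 24 named genes of the group stayed above 0 in every fit. The rule demanded a rise in every pair of these libraries, so nothing is read from these directions. Of 20 called, 14 lost the call in LA70 alone, 6 in LA61 alone and 0 with the block, which added 3. NV2t011823 was the only one to lose it with 1 library left out (edgeR adjusted p of 0.00434 to 0.0938 over the libraries left out).

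At these depths a gene under 1 CPM rests on fewer than 27 reads, so silent genes and their ratios are the least certain values. Estimated counts can be split between near-identical models, which was not tested.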
